A study of Mus musculus with 10 samples.

Results

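Cells recognise long double-stranded RNA through a small group of proteins, and 9 genes of that group were examined in mouse oocytes whose transgene makes double-stranded RNA. The genes were the cytoplasmic sensors Ddx58 (RIG-I) and Ifih1 (MDA5), the endosomal sensor Tlr3, the adaptor Mavs, the kinase Eif2ak2 (PKR), the editing enzyme Adar, and the interferon regulatory factors Irf1, Irf3 and Irf7. They were chosen by gene symbol, with earlier results of these data known. The array annotation gave them 20 probe sets, each a group of short probes whose signal is summarised as a single value. They stand among 18195 genes with a probe set that names a single gene. Of the 9 genes, 6 had a probe set bright enough to test, among 10590 genes tested, and 3 did not.

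Messenger RNA was measured on oligonucleotide arrays in fully grown oocytes, which still hold an intact germinal vesicle and have not resumed meiosis. Each sample held RNA from about 50 oocytes of a single mouse. The control group held 4 samples from mice without the transgene, with replicate numbers 1, 2, 7 and 8, and the other group held 6 samples from RNAi-transgenic mice, with replicate numbers 4, 5, 6, 11, 12 and 13. The transgene lowers the messenger RNA of basonuclin (Bnc1), a zinc finger protein, in oocytes. The design therefore compares oocytes that differ in the transgene and in basonuclin at the same time, and the parts of these in a difference cannot be told apart. No sample was labelled as carrying a double-stranded RNA with another target or an empty transgene. The strain, the age, the promoter of the transgene and the number of transgenic lines were not given in the sources used here.

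Bnc1 itself was at a mean log2 intensity of 11.57 ± 0.15 (SD, n = 4) in non-transgenic samples and 3.85 ± 0.21 (SD, n = 6) in transgenic samples. The second mean lies under log2 5, an intensity of 32, below which a probe set was treated as too dim to give a level, so Bnc1 was at least 95.1-fold lower. The deposited values, already normalized between arrays, had a median intensity of 17.5 to 20.1 and 40.1% to 40.9% of probe sets above log2 5. This likeness does not describe the arrays before normalization. All 13 oocyte markers that could be measured were bright enough to test. Non-transgenic replicate 1 and transgenic replicate 6 lay farthest from the mean of their group, and no call on the 9 genes was gained or lost without them.

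As background, RIG-I and MDA5 bind double-stranded RNA in the cytoplasm and pass the signal to MAVS on mitochondria, whereas TLR3 detects it in endosomes and signals through the adaptor TICAM1. Both routes activate IRF3, IRF7 and NF-kappa B, which switch on type I interferon genes, and secreted interferon then raises a large set of stimulated genes that includes several of the sensors. PKR, once bound to double-stranded RNA, phosphorylates the translation factor eIF2 alpha and slows protein synthesis, and ADAR converts adenosine to inosine in double-stranded RNA. Mouse oocytes are known for cutting long double-stranded RNA into small interfering RNA with an oocyte form of Dicer, which is why hairpin transgenes have long been used to silence genes in them.

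The start regions of 5 of the 9 genes are shown because they belong to the genes whose level changed and to the pair of undetected genes that carry the same interferon motif as Ddx58. Each sequence runs from 250 bases before to 50 bases after the RefSeq transcript start, is 300 bases long, is written on the strand of the gene and comes from the mouse build GRCm38.p6. Capitals mark matches to the motifs searched on both strands, which were the interferon-stimulated response element core (GAAA and GAAA with any 2 bases between), the gamma-activated site (TTCNNNGAA) and the kappa B motif (GGGA and TTTCC with any base between). These letters bind IRF and STAT complexes, STAT dimers and NF-kappa B, in that order, and a match is a description of the sequence only. The windows lie at chr4:40239776-40240075 on the minus strand for Ddx58, at chr2:62646206-62646505 on the minus strand for Ifih1, at chr17:78882523-78882822 on the minus strand for Eif2ak2, at chr8:45410331-45410630 on the minus strand for Tlr3 and at chr11:53769764-53770063 on the plus strand for Irf1.
Ddx58: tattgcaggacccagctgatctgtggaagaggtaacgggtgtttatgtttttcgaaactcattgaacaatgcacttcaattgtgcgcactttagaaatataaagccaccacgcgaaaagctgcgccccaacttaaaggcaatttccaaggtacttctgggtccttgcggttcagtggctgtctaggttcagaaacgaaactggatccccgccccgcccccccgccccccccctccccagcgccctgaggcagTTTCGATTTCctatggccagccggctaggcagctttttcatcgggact
Ifih1: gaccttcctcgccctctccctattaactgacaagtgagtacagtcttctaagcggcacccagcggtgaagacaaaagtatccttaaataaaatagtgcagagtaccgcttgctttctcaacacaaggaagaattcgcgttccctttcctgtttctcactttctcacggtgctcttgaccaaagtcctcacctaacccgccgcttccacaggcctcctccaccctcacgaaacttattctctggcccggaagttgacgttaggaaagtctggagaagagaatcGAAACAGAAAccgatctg
Eif2ak2: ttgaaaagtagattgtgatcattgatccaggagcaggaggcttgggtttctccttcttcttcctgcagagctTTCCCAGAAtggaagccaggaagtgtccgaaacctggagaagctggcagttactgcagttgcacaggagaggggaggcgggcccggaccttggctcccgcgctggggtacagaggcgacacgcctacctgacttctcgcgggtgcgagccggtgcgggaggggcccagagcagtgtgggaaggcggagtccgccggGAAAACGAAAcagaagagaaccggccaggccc
Tlr3: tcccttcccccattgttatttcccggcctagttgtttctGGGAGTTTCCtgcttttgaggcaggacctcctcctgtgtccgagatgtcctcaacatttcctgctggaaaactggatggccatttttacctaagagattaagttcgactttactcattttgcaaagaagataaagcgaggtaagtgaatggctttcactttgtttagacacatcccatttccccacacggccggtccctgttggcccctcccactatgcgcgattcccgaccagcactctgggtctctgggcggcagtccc
Irf1: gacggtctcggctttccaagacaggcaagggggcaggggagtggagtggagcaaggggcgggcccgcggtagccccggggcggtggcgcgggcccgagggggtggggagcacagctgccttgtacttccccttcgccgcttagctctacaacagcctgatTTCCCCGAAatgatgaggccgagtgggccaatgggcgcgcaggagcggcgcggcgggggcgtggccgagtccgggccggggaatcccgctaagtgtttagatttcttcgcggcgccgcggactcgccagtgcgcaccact

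The interferon-stimulated response element core was found in 3 of the 9 genes. In Ddx58 it lay on the minus strand of the window at bases 2 to 11 after the start site, counting the start site as 0, in Ifih1 at bases 32 to 41 and in Eif2ak2 at bases 18 to 27. By window, 3 of the 12 start windows of the 9 genes held it, against 3.44% of all 32851 start windows of the same length. The gamma-activated site was also found in 3 genes. In Irf1 its first base lay 90 bases before the start site and in Eif2ak2 178 bases before it. In Adar it lay 22 bases after the start site of 1 of its 3 listed starts. By window it was held by 3 of the 12, against 8.30% of all windows. Tlr3 alone of the 9 held the kappa B motif, 211 bases before its start site, in 1 of the 12 windows against 0.411% of all windows. Mavs, Irf3 and Irf7 held none of these letters in their windows. Irf1 has a second listed start, whose window held none of them either, and the array values do not say which start was used.

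**Figure D1:**
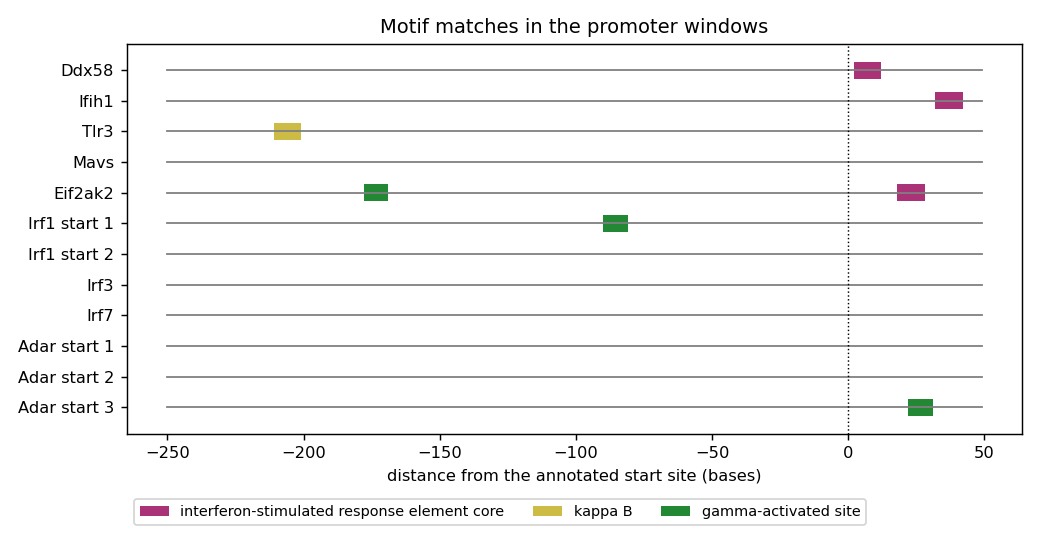
Position of each motif match in the start windows of the 9 genes. The x axis gives the distance from the transcript start in bases, with 0 at the start site, each row is 1 start window of a gene, and the colour of a block gives the motif; the interferon-stimulated response element core falls after the start site in Ddx58, Ifih1 and Eif2ak2.

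In transgenic oocytes, 2 of the 3 sensors were lower and 1 of the 3 interferon regulatory factors was slightly higher. Ddx58 fell 2.73-fold and Tlr3 fell 2.63-fold, while Irf1 rose 1.27-fold. Mavs, Irf3 and Adar did not pass the test, and Ifih1, Eif2ak2 and Irf7 were too dim to test in either group. So 3 of the 6 tested genes passed an adjusted p of 0.05 in limma's test, 1 higher and 2 lower, where 37.2% of all tested genes passed, 18.9% higher and 18.3% lower. Counts this small lie near that background, and no statement about the 9 genes as a set is made from them. Both lower genes also changed at least 2-fold, which 2.35% of all tested genes did in that direction and 6.63% in the other. In bulk samples such as these, fewer cells that hold a transcript and less of it per cell cannot be told apart.

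**Figure D2:**
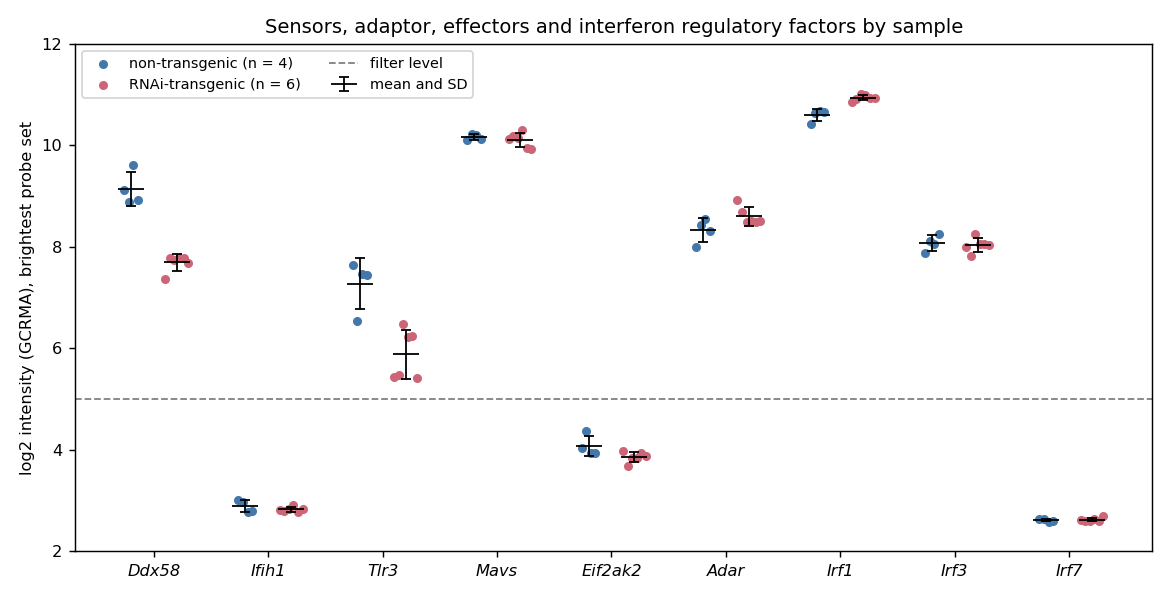
Log2 intensity of the brightest probe set of each of the 9 genes in every sample. The x axis separates 4 non-transgenic from 6 RNAi-transgenic samples, points are samples, bars are group means with SD, and the dashed line is log2 5; Ddx58 and Tlr3 lie lower and Irf1 lies higher in every transgenic sample, and Ifih1, Eif2ak2 and Irf7 lie under the line throughout.

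Ddx58, whose product senses short double-stranded RNA with a 5′ triphosphate, was measured best by probe set 1436562_at. Its log2 intensity was 9.12, 8.89, 9.61 and 8.93 in non-transgenic replicates 1, 2, 7 and 8. In the 6 transgenic samples it ranged from 7.37 to 7.79 with a median of 7.76. The highest transgenic sample lay more than 1 log2 unit under the lowest non-transgenic one, so the groups did not overlap, which held for 28.0% of all tested genes. The means were 9.14 ± 0.33 (SD, n = 4) and 7.69 ± 0.16 (SD, n = 6). The difference was -1.45 on the log2 scale (SE 0.15, 95% confidence interval -1.77 to -1.12), with an adjusted p of 2.3e-05 in limma's test and a p of 0.00476 in the two-sided exact permutation test, the smallest that 4 against 6 samples allow. The fall was present among the samples numbered 1 to 6, at -1.38, and among those numbered 7 to 13, at -1.52, with adjusted p of 0.00800 and 0.00699 in limma's test.

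The other probe sets of Ddx58 were dim. Probe set 1456890_at was above log2 5 in 1 of 4 non-transgenic samples and in no transgenic sample, and its means were 4.44 ± 0.58 (SD, n = 4) and 3.60 ± 0.18 (SD, n = 6). It therefore was not tested with the other genes. With every value under log2 5 set to that level, its groups differed 1.03-fold, so it adds little to the result of the first probe set. Probe set 1446457_at stood at 2.86 and 2.82 in the 2 groups, both under that level.

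Tlr3, the receptor for double-stranded RNA in endosomes, was measured best by probe set 1422782_s_at, whose suffix marks probes that can match several transcripts. Its log2 intensity was 7.63, 6.53, 7.47 and 7.45 in non-transgenic replicates 1, 2, 7 and 8. The transgenic samples ranged from 5.41 to 6.48 with a median of 5.84. Transgenic replicates 4, 5 and 13 lay at 5.44, 5.47 and 5.41, and replicates 6, 11 and 12 lay higher at 6.48, 6.22 and 6.24. The groups did not overlap, but the gap was narrow, since non-transgenic replicate 2 lay just above transgenic replicate 6. The means were 7.27 ± 0.50 (SD, n = 4) and 5.88 ± 0.49 (SD, n = 6), a difference of -1.39 (SE 0.28, 95% confidence interval -2.01 to -0.78) with an adjusted p of 0.00259 in limma's test and an exact permutation p of 0.00476.

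The Tlr3 call did not hold in every subset of the samples. Among those numbered 1 to 6 the difference was -1.29 with an adjusted p of 0.115 in limma's test, so the call was lost, and among those numbered 7 to 13 it was -1.50 with an adjusted p of 0.0153. The 3′ minus 5′ difference of the Gapdh control probe sets, a measure of how far the labelled RNA reaches toward the 5′ end, was 3.72 to 4.34 in non-transgenic and 3.63 to 4.12 in transgenic samples on the log2 scale. The same difference of the actin control probe sets was 3.44 to 4.01 and 3.40 to 5.13, with transgenic replicate 6 the highest. With the Gapdh measure as a covariate the Tlr3 difference was -0.94 with an adjusted p of 0.0234 in limma's test. The second probe set, 1422781_at, was above log2 5 in 2 of 4 non-transgenic and 0 of 6 transgenic samples, with means of 5.22 ± 0.53 (SD, n = 4) and 4.56 ± 0.14 (SD, n = 6). It was too dim to test with the other genes. With every value under log2 5 set to that level, its groups differed 1.24-fold, so it adds little to the result of the first probe set.

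Ifih1, whose product senses long double-stranded RNA and which has 1 probe set, 1426276_at, lay under log2 5 in all 10 samples. Its values were 3.01, 2.97, 2.77 and 2.79 in the non-transgenic samples and 2.76 to 2.91, with a median of 2.81, in the transgenic samples. The groups overlapped at a level where the normalization pulls dim probe sets together, so no fold is given. The array does not show whether the transcript is absent or present below what this probe set can detect.

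**Figure D3:**
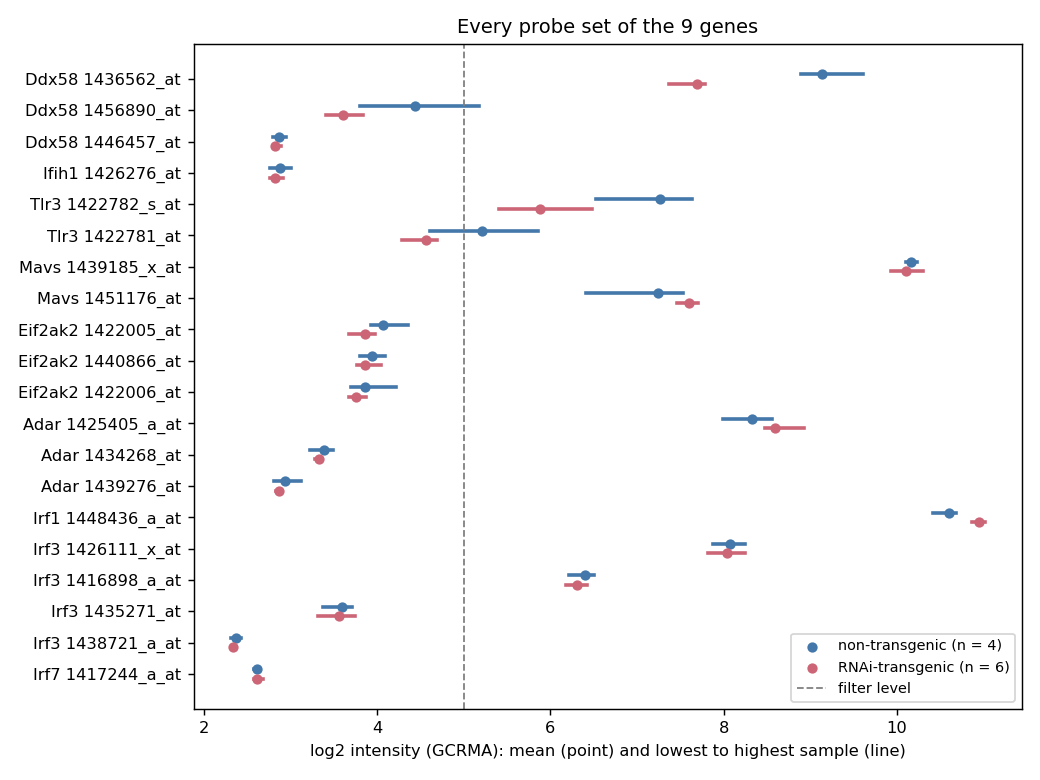
Group means of log2 intensity for all 20 probe sets of the 9 genes. The x axis is log2 intensity, each row is a probe set, the 2 colours are the group means (4 non-transgenic and 6 RNAi-transgenic samples) with lines from the lowest to the highest sample, and the dashed line is log2 5; the 3 probe sets of Eif2ak2 and the only ones of Ifih1 and Irf7 lie left of the line in both groups.

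Mavs, the adaptor that both cytoplasmic sensors signal through, was bright and did not pass the test. Probe set 1439185_x_at, some of whose probes also match other sequences, read 10.11, 10.23, 10.20 and 10.13 in the non-transgenic samples. In the transgenic samples it read 9.93 to 10.30 with a median of 10.13. The groups overlapped, and the means were 10.17 ± 0.06 (SD, n = 4) and 10.10 ± 0.14 (SD, n = 6). The 95% confidence interval of the difference, -0.25 to 0.12 on the log2 scale (adjusted p = 0.589 in limma's test), excludes a fall as large as that of Ddx58 or Tlr3 at this probe set.

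A second Mavs probe set, 1451176_at, carries no such suffix. Its values were 6.41, 7.52, 7.53 and 7.50 in non-transgenic replicates 1, 2, 7 and 8 and 7.46 to 7.70 in the transgenic samples. Non-transgenic replicate 1 alone lay apart. The difference was 0.36 (95% confidence interval -0.09 to 0.80, adjusted p = 0.204 in limma's test over all probe sets, of which 34.0% passed) and 0.08 without that sample.

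The enzymes that act on double-stranded RNA gave no call. Eif2ak2, which encodes PKR, had 3 probe sets, and all of them lay under log2 5 in every sample. Its brightest, 1422005_at, read 4.03, 4.36, 3.93 and 3.94 in the non-transgenic samples and 3.67 to 3.97, with a median of 3.86, in the transgenic samples. The 2 groups overlapped there, and the next probe sets, 1440866_at and 1422006_at, were at 3.95 and 3.86 in non-transgenic and 3.87 and 3.76 in transgenic means.

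Adar, which edits adenosine to inosine, was measured by probe set 1425405_a_at at 8.00, 8.44, 8.55 and 8.31 in the non-transgenic samples. The transgenic samples ranged from 8.48 to 8.93 with a median of 8.51. Only 2 of the 6 transgenic samples lay above all non-transgenic ones, so the groups overlapped. The means were 8.33 ± 0.24 (SD, n = 4) and 8.60 ± 0.18 (SD, n = 6), and the difference of 0.27 (95% confidence interval -0.01 to 0.56) had an adjusted p of 0.125 in limma's test and an exact permutation p of 0.0667. The interval leaves room for a rise of up to 0.56 on the log2 scale and for none. The other Adar probe sets, 1434268_at and 1439276_at, were under log2 5 in every sample.

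Irf1, a transcription factor that interferon gamma induces and that activates many interferon-stimulated genes, rose by a small amount. Probe set 1448436_a_at, which covers alternate transcripts of the gene, read 10.42, 10.65, 10.68 and 10.65 in the non-transgenic samples. The transgenic samples lay close together from 10.86 to 11.01 with a median of 10.94. Every transgenic sample was above every non-transgenic one, and non-transgenic replicate 1 was the lowest. The means were 10.60 ± 0.12 (SD, n = 4) and 10.94 ± 0.05 (SD, n = 6), a difference of 0.34 (SE 0.07, 95% confidence interval 0.19 to 0.49) with an adjusted p of 0.00244 in limma's test and an exact permutation p of 0.00476. Within the samples numbered 1 to 6 the difference was 0.40 with an adjusted p of 0.0714, and within those numbered 7 to 13 it was 0.29 with an adjusted p of 0.0589, both by limma, so neither subset passed by itself.

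Irf3, which is phosphorylated downstream of MAVS and TLR3 and turns on the interferon beta gene, did not pass. Probe set 1426111_x_at read 7.87, 8.12, 8.05 and 8.24 in the non-transgenic and 7.82 to 8.24, with a median of 8.04, in the transgenic samples. The ranges overlapped almost wholly. The difference was -0.04 (95% confidence interval -0.26 to 0.19, adjusted p = 0.813 in limma's test). The second bright probe set, 1416898_a_at, was at 6.40 ± 0.13 (SD, n = 4) and 6.31 ± 0.08 (SD, n = 6) and did not pass either (adjusted p = 0.494 in limma's test over all probe sets).

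Irf7, the factor that amplifies the type I interferon response and is itself raised by interferon, was under log2 5 in all samples. Probe set 1417244_a_at read 2.63, 2.64, 2.58 and 2.59 in the non-transgenic and 2.58 to 2.68 in the transgenic samples. The groups overlapped, with no sample of either group standing out.

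The genes around these 9 were followed in 9 pathway lists that leave the 9 out and together hold 198 genes. A probe set naming a single gene was found for 178, of which 105 were bright enough to test. Of those, 20 were higher, 16 were lower and 69 did not pass, so 34.3% passed, against 37.2% of all genes tested. Their median difference was -0.03 on the log2 scale, as it was over all genes tested. The other 73 genes were below the filter. The lists were therefore called about as often as genes at large, and no list is described as standing apart. Of the 36 calls, 28 held without each of the 10 samples in turn, and 20 were lost when only the samples numbered 1 to 6 were used and 18 when only those numbered 7 to 13 were used. The 20 were Rnf125, Riok3, Tank, Tbk1, Pcbp2, Azi2, Lgmn, Atf4, Oas1b, Cdkn2aip, Sidt2, Zfr, Prkrip1, Stat3, Socs3, Ifi30, Daxx, B2m, H2-K1 and Nfkbia. The 18 were Rnf125, G3bp1, Tank, Eif2ak1, Atf4, Pde12, Oas1b, Oas1a, Sidt2, Zfr, Prkrip1, Irf2bp2, Ifnlr1, Stat3, Ifnar1, H2-K1, Ikbkb and Tab3. With the Gapdh 3′ minus 5′ difference as a covariate 10 were lost, which were Tank, Pcbp2, Azi2, Atf4, Zfr, Stat3, Socs3, B2m, H2-K1 and Nfkbia, and leaving out non-transgenic replicate 1 with transgenic replicate 6 lost 4, which were Atf4, Oas1a, Zfr and Irf2bp2.

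**Figure D4:**
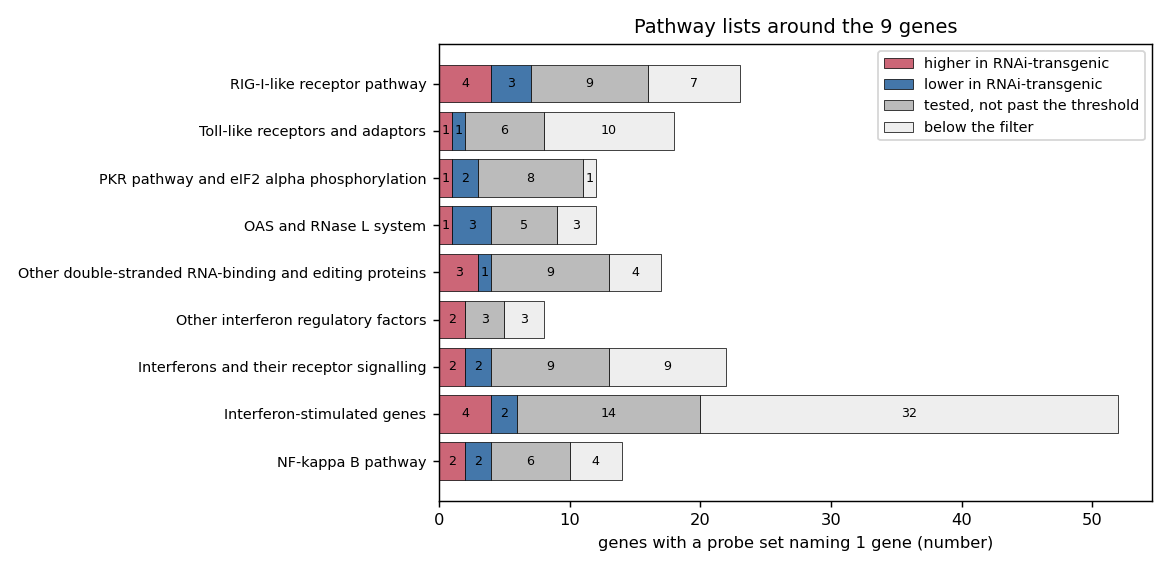
Outcome of the limma test in the 9 pathway lists. The x axis counts genes with a probe set that names a single gene, each bar is a list, and colours give genes higher or lower in RNAi-transgenic oocytes, tested without passing, or below the filter; 32 of 52 interferon-stimulated genes fall in the last class.

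**Figure D5:**
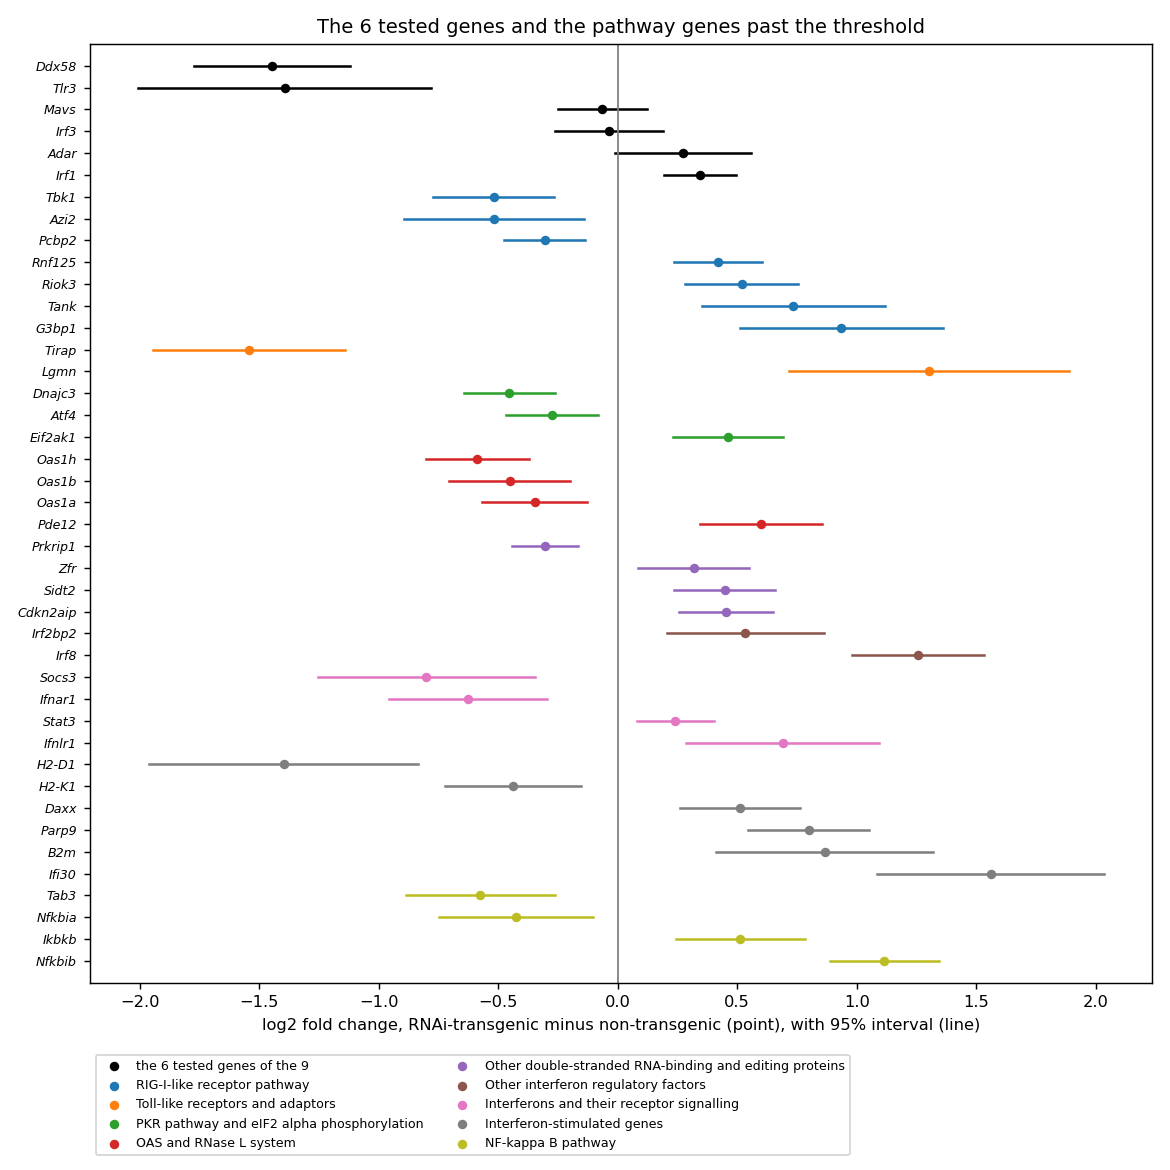
Log2 difference, transgenic minus non-transgenic, for the 6 tested genes and for the 36 pathway genes past the threshold. The x axis is the log2 difference with 0 marked, points are estimates from limma (4 and 6 samples), lines are 95% confidence intervals and colours give the list; the intervals of Ddx58 and Tlr3 lie below 0, that of Irf1 lies above 0, and those of Mavs, Irf3 and Adar cross it, while the pathway genes, shown because they passed, lie on either side.

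In the RIG-I-like receptor pathway 4 genes were higher, 3 were lower and 9 did not pass, with a median difference of 0.06, and 7 were below the filter. G3bp1, a stress granule protein that helps RIG-I bind RNA, rose by 0.94 (from 8.20 ± 0.29, SD, n = 4, to 9.14 ± 0.35, SD, n = 6), and Tank, a scaffold of the kinase TBK1, rose by 0.73. Rnf125, a ubiquitin ligase that marks RIG-I for degradation, rose by 0.42, and the kinase gene Riok3 rose by 0.52. Tbk1 itself, the kinase that phosphorylates IRF3, fell by 0.52 (from 10.07 ± 0.22, SD, n = 4, to 9.55 ± 0.16, SD, n = 6). Pcbp2, which promotes MAVS degradation, fell by 0.31, and Azi2, a further TBK1 adaptor, fell by 0.52. The G3bp1 difference was 0.61 within the samples numbered 7 to 13 (adjusted p = 0.126), that of Tank was 0.48 with the Gapdh covariate (adjusted p = 0.0670), and that of Pcbp2 was -0.19 as the mean of its probe sets (adjusted p = 0.0870) and within the samples numbered 1 to 6 (adjusted p = 0.241), all by limma. The Azi2 difference was -0.30 within the samples numbered 1 to 6, and its call was lost when non-transgenic replicate 7 or 8 or transgenic replicate 5, 6, 11 or 13 was left out, with adjusted p of 0.0526 to 0.103 in limma's test. Trim25, the ubiquitin ligase that activates RIG-I, was under log2 5 in every sample, and Dhx58 (LGP2), the third helicase of the family, did not pass (difference -0.17, adjusted p = 0.219 in limma's test).

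Of the Toll-like receptors and their adaptors, 1 gene was higher, 1 was lower and 6 did not pass, and 10 were below the filter, among them Ticam1, the adaptor through which TLR3 signals. Tirap, a bridging adaptor of TLR2 and TLR4, fell by 1.54 (from 8.32 ± 0.35, SD, n = 4, to 6.77 ± 0.28, SD, n = 6, adjusted p = 6.9e-05 in limma's test). Tlr2 and Tlr4 were both under log2 5 in every sample. Lgmn, a lysosomal protease that can process endosomal Toll-like receptors, rose by 1.30. The median difference of the list was -0.07.

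In the PKR and eIF2 alpha list 1 gene was higher, 2 were lower and 8 did not pass, with a median difference of -0.08. Eif2ak1, the heme-regulated kinase of eIF2 alpha, rose by 0.46, and by a difference of 0.28 that did not pass within the samples numbered 7 to 13 (adjusted p = 0.106 in limma's test). Dnajc3 (p58IPK), an inhibitor of PKR and of the related kinase PERK, fell by 0.45. Atf4, the transcription factor translated when eIF2 alpha is phosphorylated, fell by 0.27, a call lost without non-transgenic replicate 2 (adjusted p = 0.0882) or 8 (adjusted p = 0.0934) in limma's test.

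In the list of oligoadenylate synthetases and RNase L, 1 gene was higher, 3 were lower and 5 did not pass, with a median difference of -0.26. Active members of this family bind double-stranded RNA and make the small molecule that activates RNase L. The mouse genome carries several copies of the Oas1 gene, not all of which need encode an active enzyme, and activity was not measured here. Oas1c and Oas1e were very bright, at 14.13 and 13.46 in non-transgenic samples and 14.16 and 13.22 in transgenic samples, and did not pass. Oas1e did pass with the replicate number range as a covariate (difference -0.24, adjusted p = 0.0348), under quantile normalization (-0.25, adjusted p = 0.0494), with arrays centred on probe sets above the filter (-0.30, adjusted p = 0.0205) and when transgenic replicate 12 was left out (-0.31, adjusted p = 0.00990), all by limma. Oas1h fell by 0.59 (from 12.75 ± 0.07, SD, n = 4, to 12.16 ± 0.20, SD, n = 6), Oas1b fell by 0.45 and Oas1a fell by 0.35. The Oas1a call was lost without non-transgenic replicate 1 (adjusted p = 0.0511) or 2 (adjusted p = 0.0563) in limma's test, and its difference was -0.22 within the samples numbered 7 to 13. The Oas1 copies are alike in sequence, so cross-hybridisation between them was not separated. Pde12, a phosphodiesterase that degrades the activator of RNase L, rose by 0.60, and Oas2, Oas3 and Oasl2 were below the filter.

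Among other proteins that bind or edit double-stranded RNA, 3 were higher, 1 was lower and 9 did not pass, with a median difference of -0.05. Cdkn2aip rose by 0.45, Sidt2, a lysosomal RNA transporter, rose by 0.45 and Zfr, a zinc finger RNA-binding protein, rose by 0.32. The Zfr call was lost when non-transgenic replicate 1, 7 or 8 or transgenic replicate 4, 5, 6, 11 or 13 was left out, with adjusted p of 0.0529 to 0.101 in limma's test. Prkrip1, a double-stranded RNA-binding protein that interacts with PKR, fell by 0.30. Son, at 11.81 and 11.71, differed by -0.10 and did not pass.

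Of the other interferon regulatory factors and their partners, 2 of 5 tested genes were higher and none was lower, with 3 below the filter and a median difference of 0.19. Irf8, a factor best known from macrophages and dendritic cells, rose by 1.25 (from 7.68 ± 0.26, SD, n = 4, to 8.94 ± 0.14, SD, n = 6, adjusted p = 2.0e-05 in limma's test). Irf2bp2, a corepressor of IRF2, rose by 0.53 from 5.85, and its call was lost without non-transgenic replicate 2 (adjusted p = 0.0529 in limma's test) and within the samples numbered 7 to 13, where the difference was 0.30. Irf2, Irf4 and Irf9 were under log2 5 in every sample.

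In the list of interferons, their receptors and signalling, 2 genes were higher, 2 were lower and 9 did not pass, with a median difference of -0.03. All 9 genes below the filter stayed under log2 5 in every sample, and they were the interferon genes Ifnb1, Ifna2, Ifna4 and Ifng, the receptor genes Ifnar2, Ifngr1 and Ifngr2, and the feedback inhibitors Socs1 and Usp18. The only interferon gene above it, Ifna1, belongs to a family of near-identical copies and did not pass (difference 0.14, adjusted p = 0.477 in limma's test). Ifnar1, a chain of the type I interferon receptor, fell by 0.63 (from 6.84 ± 0.19, SD, n = 4, to 6.21 ± 0.27, SD, n = 6), and the cytokine feedback inhibitor Socs3 fell by 0.80. Ifnlr1, a chain of the lambda interferon receptor, rose by 0.69 from 5.46, with a difference of 1.05 within the samples numbered 1 to 6 and of 0.33 (adjusted p = 0.320 in limma's test) within those numbered 7 to 13. The Socs3 difference was -0.39 (adjusted p = 0.307) and -1.21 (adjusted p = 0.0142) within the same ranges and -0.53 (adjusted p = 0.101) with the Gapdh covariate, by limma. Stat3 rose by 0.24, a call lost without non-transgenic replicate 2 (adjusted p = 0.0718 in limma's test), and by 0.37 as the mean of its probe sets.

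Of 52 interferon-stimulated genes with a probe set, 20 could be tested, and 4 were higher, 2 were lower and 14 did not pass, with a median difference of 0.03. Of the 32 below the filter, 29 were at or under log2 5 on every array, including the antiviral genes Ifit1, Ifit2, Ifit3, Mx1, Mx2 and Rsad2, Zbp1, a sensor of Z-form nucleic acid, and the immunoproteasome subunits Psmb8 and Psmb9. The highest value of Rsad2 was 4.19 in non-transgenic and 4.18 in transgenic samples, and that of Mx1 was 4.94 and 4.66. These dim values do not measure absence, and a change that stayed under the level could not have been detected.

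Those antiviral genes were below the filter and not tested, so they could not be among the genes called higher, which follow. Ifi30, a lysosomal thiol reductase of antigen processing, rose by 1.56 (from 7.98 ± 0.59, SD, n = 4, to 9.54 ± 0.12, SD, n = 6). Parp9 rose by 0.80, the chromatin protein gene Daxx rose by 0.51, and B2m, the light chain of class I molecules, rose by 0.87 (from 9.65 ± 0.21, SD, n = 4, to 10.52 ± 0.43, SD, n = 6). The class I heavy chain genes H2-D1 and H2-K1 went the other way, with H2-D1 at least 2.44-fold lower, 4 of 6 transgenic samples being above log2 5, and H2-K1 lower by a difference of -0.44. As the mean of its probe sets H2-D1 differed by -0.70. The H2-K1 call was lost without non-transgenic replicate 7 (adjusted p = 0.0584 in limma's test) and within the samples numbered 7 to 13, at -0.29, and class I genes share sequence, so their probe sets may not be specific.

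In the NF-kappa B pathway 2 genes were higher, 2 were lower and 6 did not pass, with a median difference of -0.08. Nfkbib, an inhibitor that holds NF-kappa B in the cytoplasm, rose by 1.12 (from 8.40 ± 0.15, SD, n = 4, to 9.51 ± 0.15, SD, n = 6, adjusted p = 1.2e-05 in limma's test), and Ikbkb, the kinase that triggers degradation of such inhibitors, rose by 0.51. As the mean of its probe sets Ikbkb differed by 0.18 and did not pass (adjusted p = 0.0666 in limma's test). Tab3, an adaptor of the kinase TAK1, fell by 0.58. Nfkbia, a further inhibitor, fell by 0.43, and its call was lost when non-transgenic replicate 2, 7 or 8 or transgenic replicate 4, 5, 12 or 13 was left out, with adjusted p of 0.0541 to 0.116 in limma's test. Its difference was -0.19 within the samples numbered 1 to 6, -0.66 within those numbered 7 to 13 and -0.27 with the Gapdh covariate.

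Because Irf8, Ifi30, B2m and Tlr3 are also transcribed in immune cells, markers of other cells were measured beside them. Of 15 blood and immune markers, 12 were under log2 5 on every array, among them the leukocyte genes Ptprc, Cd68, Itgam, Csf1r, Tyrobp and Cd52. Of the 3 tested, Laptm5 was higher by 1.06 (from 8.54 ± 0.76, SD, n = 4, to 9.61 ± 0.40, SD, n = 6), a call lost without non-transgenic replicate 2, 7 or 8 (adjusted p of 0.0571 to 0.0691 in limma's test), and by 0.36 as the mean of its probe sets. The call was also lost within the samples numbered 1 to 6 (0.87, adjusted p = 0.210 in limma's test). The other 2 did not pass. Of these, Adgre1 was above log2 5 in every sample, at means of 6.67 and 6.72 (difference 0.06, adjusted p = 0.708 in limma's test). The summed linear intensity of the list was 560 to 1141 in non-transgenic and 891 to 1536 in transgenic samples, which overlapped.

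The list for the follicle cells around the oocyte (granulosa and cumulus) summed to 1658 to 1900 and 1620 to 2619. Of 7 tested genes 2 were higher, Fshr and Cyp11a1. The Fshr call was lost within the samples numbered 1 to 6 (1.30, adjusted p = 0.0528) and within those numbered 7 to 13 (1.18, adjusted p = 0.0635) in limma's test. That of Cyp11a1 was lost without non-transgenic replicate 8 (adjusted p = 0.0682) or within the samples numbered 7 to 13 (0.92, adjusted p = 0.360) in limma's test. Amh, Amhr2, Inhba, Ptx3 and Has2 were under log2 5 on every array. Markers of stroma and vessels summed to 411 to 509 and 570 to 675, which did not overlap (exact permutation p = 0.00476). Among all tested genes, 28.0% did not overlap between the groups. The exact permutation p was 0.0571 for the immune sum, 0.238 for the follicle cell sum and 0.929 for the oocyte sum. Of 5 stroma and vessel markers tested, Kdr, Dcn and Postn were higher and Acta2 was lower. The Acta2 call was lost without non-transgenic replicate 1 or 8 or transgenic replicate 4, 5, 11, 12 or 13 (adjusted p of 0.0597 to 0.104 in limma's test), with a difference of -0.50 over all samples and -0.29 without non-transgenic replicate 1. Within the samples numbered 1 to 6 the calls of Dcn (0.98, adjusted p = 0.0667) and Postn (0.55, adjusted p = 0.158) were lost in limma's test. Pecam1, Cdh5, Col1a2, Col3a1, Pdgfra and Vim were under log2 5 on every array. Oocyte markers summed to 219418 to 232385 and 208874 to 245614. Of 13 tested, none was higher and 2 were lower, Figla by a difference of -0.54 (adjusted p = 0.0153) and Dppa3 by -0.21 (adjusted p = 0.0265) in limma's test. The Figla call was lost without non-transgenic replicate 2 or 7 (adjusted p of 0.0505 to 0.0513), and that of Dppa3 without non-transgenic replicate 1, 7 or 8 or transgenic replicate 5 or 11 (adjusted p of 0.0510 to 0.0707), by limma. Within the samples numbered 1 to 6 Figla differed by -0.30 (adjusted p = 0.424) and Dppa3 by -0.17 (adjusted p = 0.376), so neither passed by limma. Nr5a2, the brightest follicle cell marker and a large part of that sum, had log2 means of 9.94 and 9.87 and did not pass. The median difference of tested genes was 0.08 for immune, 0.55 for follicle cell, 0.81 for stroma and vessel and -0.02 for oocyte markers. Over all genes tested it was -0.03. The part of other cells in the results for Tlr3, Irf1, Irf8, Ifi30 and B2m was not tested.

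The 3 changed genes were also set beside the other 10589 tested genes by the Pearson correlation of log2 values over the 10 samples, as a description. The closest to Ddx58 were Zup1, at 0.99, Anxa6, at 0.99, and Hivep3, at 0.98, which were lower in transgenic samples by differences of -0.78, -1.08 and -0.65. The closest to Tlr3 were Cdh2 (N-cadherin), at 0.97, Tmem151a, at 0.96, and Cntd1, at 0.96, with differences of -2.72, -0.21 and -0.40. The closest to Irf1 were Fbp2, Nkain1 and Il1rap, each at 0.98, with differences of 0.97, 1.49 and 1.16. With the mean of each group taken out, the first named of each gene still correlated at 0.94 for Zup1, 0.92 for Cdh2 and 0.90 for Fbp2. The samples share the split by transgene and the normalization, and each gene was picked as the highest of all tested genes, so high values are built into this ranking.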

How the data were processed

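Per the labels, biotin-labelled RNA of each of 10 samples was hybridised to 1 array. The authors deposited a linear intensity for each probe set on each array, made with GCRMA per the submitters' processing notes (no version is stated), a method that corrects background, normalizes between arrays and pulls dim probe sets together. No detection flag is given. Of 45101 probe sets, 34958 named a single gene in the platform annotation, 932 named several and the rest were not listed or were controls.

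Intensity was put on the log2 scale. A probe set was tested where it exceeded log2 5 in at least 4 arrays, and the brightest probe set over all samples represented a gene. Groups were compared with limma 3.58.1 (lmFit, eBayes with a trend) in R 4.3.3, unpaired, with Benjamini-Hochberg adjustment over 10590 genes and a threshold of 0.05. Differences are transgenic minus non-transgenic on the log2 scale, and their intervals are not adjusted. The exact permutation test of a single value was two-sided and ran over all 210 splits, with a smallest possible p of 0.00476. Where some samples of the dimmer group were under log2 5 they were set to it and the fold is given as at least that large. The fit was tested on simulated data, where it recovered 64.2% of 1.5-fold and 88.1% of 2-fold changes, so small changes can be missed. There 7.26% of its calls were false. The simulation changed 67 genes by 1.5-fold, 67 by 2-fold and 66 by 4-fold among 10590, with noise drawn independently for each gene and sample. In the data 3940 genes passed, so these shares do not measure the error of the calls made here. Start windows came from RefSeq's table for GRCm38.p6 and held all 9 genes; symbols followed the files. Motifs were searched in Python 3.11.15 and figures drawn with matplotlib 3.10.9.

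The genes and lists were chosen with earlier results of these data known. Named genes were the 9 with every probe set, Bnc1, up to 4 higher and 4 lower genes per list by adjusted p with the 2 brightest tested, of which not all are printed, and the 3 most alike genes of each changed member; list genes named below the filter, and Dhx58 and Ifna1, were chosen after their values were seen. Alternatives were no filter, a level of log2 7, quantile normalization, median centring, log2(value + 16), other variance models, array weights, the replicate number range as covariate or subset, other probe set rules and each sample left out. Added after seeing the data were leaving out the pair of arrays that stood apart, centring on probe sets above the filter, and 2 RNA length covariates. The number of arrays limits the precision.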

Additional observations from a re-analysis of the deposited data

Results flagged for a closer look

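In each group of 4 or 6 samples, the gap between the highest or lowest sample and its nearest neighbour was divided by the range of the group and set against Dixon's critical value at 95%. Of 138 groups examined for named genes, 14 held such a sample, and chance alone gives about 5%. Among the 9 genes, Ddx58 in transgenic replicate 4 was lowest at 7.37 with its nearest neighbour at 7.68, a gap of 0.749 of the range. Tlr3 in non-transgenic replicate 2 was lowest at 6.53 with a gap of 0.8294, barely past the critical value. Irf1 in non-transgenic replicate 1 was lowest at 10.42 with a gap of 0.878, and the second Mavs probe set, 1451176_at, in the same sample was at 6.41 with a gap of 0.977. These values lie toward the other group for Tlr3 and away from it for Ddx58, Irf1 and the second Mavs probe set.

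Among the pathway genes the lowest sample stood apart for Dnajc3 in non-transgenic replicate 8 (gap 0.889), Ifitm3 in non-transgenic replicate 2 (0.862), Atf4 in transgenic replicate 11 (0.695) and Zfr in transgenic replicate 12 (0.657). The highest sample stood apart for Sidt2 in transgenic replicate 6 (gap 0.639), Irf8 in transgenic replicate 6 (0.735), Stat3 in transgenic replicate 12 (0.653) and Son in non-transgenic replicate 1 (0.893). Irf8 in transgenic replicate 6 read 9.21 and its nearest neighbour 8.92. Among the markers, Cyp11a1 in transgenic replicate 11 was lowest at 5.18 (gap 0.638) and Figla in non-transgenic replicate 1 was lowest at 8.62 (gap 0.842).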

How the results depend on the processing

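No difference of a named gene that was past the threshold, in the reported fit or under an alternative run, changed sign. With only the samples numbered 1 to 6, 0 of the 9 genes were higher and 1 was lower, 1913 of all genes passed, 9 pathway genes were higher and 7 lower, Tlr3 was at -1.29 and Irf1 at 0.40 without passing. With only those numbered 7 to 13, 0 of the 9 were higher, 2264 of all genes passed, 9 pathway genes were higher, and Irf1 was at 0.29 without passing. Fewer samples enter these fits. With a level of log2 7 in place of 5, Tlr3 was not tested and 1 of the 9 genes was lower. No paired analysis was possible because the groups share no replicate number. Leaving out each sample in turn gave Ddx58 -1.53 to -1.29, Tlr3 -1.64 to -1.27 and Irf1 0.28 to 0.37, all past the threshold, and 3383 to 3772 genes in all. Of 72 single-gene results, 21 kept sign and call under every alternative run, and 10 of these were past the threshold in the reported fit. A further 7, none past the threshold, kept their call but changed sign under at least 1, among them Mavs (0.15 as the mean of its probe sets) and Irf3 (0.03 within the samples numbered 1 to 6). The call of 44 changed under at least 1, and 39 of these were past the threshold in the reported fit. Scaling moved the split of calls from 1998 higher and 1942 lower to 1903 and 2260 under quantile normalization and 1982 and 1452 under median centring; with arrays centred on probe sets above the filter it was 1769 and 2447. Dim genes carry only a bound, and the 9 genes include 3 of them.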
